A study of Homo sapiens with 132 samples.

Results

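Neutrophil-attracting chemokines and their neighbours in the chemokine family were examined as 9 genes in 4 human gastric cancer cell lines: CXCL1, CXCL2, CXCL3, CXCL5, CXCL6, CXCL8, CXCL16, CCL2 and CCL20. They were taken by symbol through the Ensembl identifier and are 9 of the 65217 identifiers counted in each library. RNA sequencing was performed on 132 libraries from 44 conditions with 3 replicates each. MKN1 and Hs746T cells (42 libraries each) were left untreated or received EGF (5 ng/ml), cetuximab (Cet, 1 µg/ml), EGF plus cetuximab, trastuzumab (Tra, 5 µg/ml), afatinib (Afa, 0.5 µM) or trastuzumab plus afatinib. MKN7 and NCI-N87 cells (24 libraries each) were left untreated or received trastuzumab, afatinib or both. Each condition was sampled at 4 h and at 24 h. EGF is the ligand of the EGF receptor, cetuximab an antibody to that receptor, trastuzumab an antibody to HER2, and afatinib a small molecule that blocks the kinases of both receptors. The controls were untreated cells, not vehicle-treated cells, and all groups were grown with fetal calf serum, MKN1, MKN7 and NCI-N87 in RPMI and Hs746T in DMEM medium. All 4 lines were established from metastases of gastric carcinomas, and each stands for a single tumour, grown without added stromal or immune cells. The labels number the replicates without saying whether they were separate cultures, so p-values measure only the spread between these samples, which may be technical.

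Library totals ranged from 25832557 to 69434151 counts with a median of 50725776. A count of 3, taken as the detection floor, corresponded to 0.0432 CPM (counts scaled to a common library size) in the deepest and 0.116 CPM in the shallowest library, counting error only. The summed level of 5 epithelial markers (EPCAM, KRT8, KRT18, KRT19, CDH1) was 12601 to 23780 CPM in MKN1, 4312 to 7128 CPM in MKN7, 9111 to 25140 CPM in NCI-N87 and only 438 to 738 CPM in Hs746T, where 4 mesenchymal markers (VIM, CDH2, FN1, ZEB1) summed to 3077 to 5507 CPM. The 3 neutrophil markers FCGR3B, CSF3R and S100A12 never summed to more than 0.416 CPM, and FCGR3B never exceeded the floor in any line. Leukocyte markers (PTPRC, CD3E, CD14, CSF1R, ITGAM) summed to 1.34 to 16.9 CPM over all libraries, fibroblast markers (PDGFRA, PDGFRB, LUM, DCN) reached 331 CPM in MKN1 and no more than 5.22 CPM elsewhere, and the endothelial markers PECAM1 and CDH5 reached 274 CPM in Hs746T and no more than 26.2 CPM elsewhere. Their part in the results was not tested. In Hs746T, all 14 libraries of replicate 1 stood apart from those of replicates 2 and 3 in CXCL5 and CXCL16. Within a single time they also did so in CXCL1, CXCL2 and CCL2, as described with that line.

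Chemokines are small secreted proteins that steer the migration of leukocytes along concentration gradients. CXCL1, CXCL2, CXCL3, CXCL5, CXCL6 and CXCL8 carry an ELR motif before their first cysteines, bind CXCR1 or CXCR2, and draw neutrophils, and in many epithelial cells they are induced by NF-kB and AP-1 downstream of cytokine and growth factor receptors. CXCL16 is made as a membrane-bound ligand of CXCR6 that is shed by ADAM10 and ADAM17, CCL2 attracts monocytes through CCR2, and CCL20 attracts dendritic cells and lymphocytes through CCR6.

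The 6 ELR genes lie in one stretch of chromosome 4 (hg38): CXCL8 (ENSG00000169429) at chr4:73740506-73743716, CXCL6 (ENSG00000124875) at chr4:73836497-73849064, CXCL1 (ENSG00000163739) at chr4:73869393-73871242, CXCL5 (ENSG00000163735) at chr4:73995642-73998779, CXCL3 (ENSG00000163734) at chr4:74036589-74038807 and CXCL2 (ENSG00000081041) at chr4:74097035-74099293, the last 3 on the minus strand. CXCL16 (ENSG00000161921, chr17:4733526-4739922, minus strand) and CCL2 (ENSG00000108691, chr17:34255218-34257203, plus strand) are on chromosome 17, and CCL20 (ENSG00000115009, chr2:227805739-227817564, plus strand) is on chromosome 2. CXCL1, CXCL2 and CXCL3 are close copies. In 50-base windows of their main transcripts, 5.73% of CXCL1, 9.24% of CXCL2 and 5.26% of CXCL3 occurred in another of the 3, whereas no 100-base window of any of the 9 genes was shared. Only reads shorter than 100 bases could therefore match another of the 3 exactly, and how many reads were that short was not tested.

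The start-site regions of 7 of the 9 genes were available from RefSeq (GRCh38.p14, 250 bases before to 50 bases after the start). Those of CXCL8, CXCL1 and CCL20 are shown whole because these genes lead the results below, with the letters GGAATTTCC (CXCL8, CXCL1), TGACTCA (CXCL8) and GGAAAACCCC (CCL20) in capitals. The start is RefSeq's and need not be the 5′ end of the counted gene.
CXCL8 (chr4:73740319-73740618, plus strand): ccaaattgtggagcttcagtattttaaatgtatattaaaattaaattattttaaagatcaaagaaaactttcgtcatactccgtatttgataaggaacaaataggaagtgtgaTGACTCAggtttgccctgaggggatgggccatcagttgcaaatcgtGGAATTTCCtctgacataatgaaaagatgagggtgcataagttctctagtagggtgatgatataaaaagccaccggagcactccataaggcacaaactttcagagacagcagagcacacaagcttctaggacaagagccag
CXCL1 (chr4:73869143-73869442, plus strand): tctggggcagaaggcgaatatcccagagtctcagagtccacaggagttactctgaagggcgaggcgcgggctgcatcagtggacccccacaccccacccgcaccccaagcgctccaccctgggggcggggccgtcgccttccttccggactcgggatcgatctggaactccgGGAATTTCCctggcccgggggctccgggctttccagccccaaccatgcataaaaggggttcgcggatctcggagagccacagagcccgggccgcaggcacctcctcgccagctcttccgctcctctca
CCL20 (chr2:227813592-227813891, plus strand): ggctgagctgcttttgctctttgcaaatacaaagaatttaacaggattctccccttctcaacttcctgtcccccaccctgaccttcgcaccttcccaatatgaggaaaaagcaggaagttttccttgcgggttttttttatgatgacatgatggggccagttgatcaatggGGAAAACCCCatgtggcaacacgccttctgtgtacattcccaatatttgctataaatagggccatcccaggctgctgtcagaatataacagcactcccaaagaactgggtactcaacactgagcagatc
The 60 bases around the same GGAATTTCC are shown for the other 4 ELR genes, to compare their flanks.
CXCL2 (chr4:74099239-74099298, minus strand): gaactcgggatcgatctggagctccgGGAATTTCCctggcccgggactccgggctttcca
CXCL3 (chr4:74038734-74038793, minus strand): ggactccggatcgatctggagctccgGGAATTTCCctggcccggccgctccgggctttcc
CXCL5 (chr4:73998734-73998793, minus strand): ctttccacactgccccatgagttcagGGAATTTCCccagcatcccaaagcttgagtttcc
CXCL6 (chr4:73836563-73836622, plus strand): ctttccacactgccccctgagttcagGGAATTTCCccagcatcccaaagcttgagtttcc
On either strand, GGAATTTCC was present in 6 of these 7 regions (not in CCL20), beginning 77 to 91 bases before the start, and in 162 of 35116 RefSeq regions of the same length (0.461%). These letters were chosen after the sequences were seen. They overlap the published NF-kB consensus, which was matched in 6 of the 7 regions (not in CXCL8) and in 3956 of all regions (11.3%). The AP-1 letters TGANTCA were found only in CXCL8 among the 7, and in 2707 of all regions (7.71%). A match describes the letters in this window only.

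In untreated cells the leading chemokine per kilobase of exon was CXCL5 in NCI-N87, CXCL16 in MKN1 and MKN7, and CXCL1 in Hs746T. Per kilobase of exon, CXCL5 in NCI-N87 was the highest of the 9 genes in any line, with 59.6 CPM per kb at 4 h and 63.4 CPM per kb at 24 h, followed by CXCL16 in the same line with 23.1 and 23.0 CPM per kb. In MKN1 the order at 4 h was CXCL16 (19.4 CPM per kb), CXCL8 (5.09), CXCL1 (3.85) and CCL2 (3.46), and in MKN7 CXCL16 (12.6) and CXCL8 (11). Hs746T was led by CXCL1 (15), CXCL8 (4.64) and CXCL16 (4.15). In bulk libraries, fewer cells that transcribe a gene and less RNA per cell cannot be told apart.

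**Figure D1:**
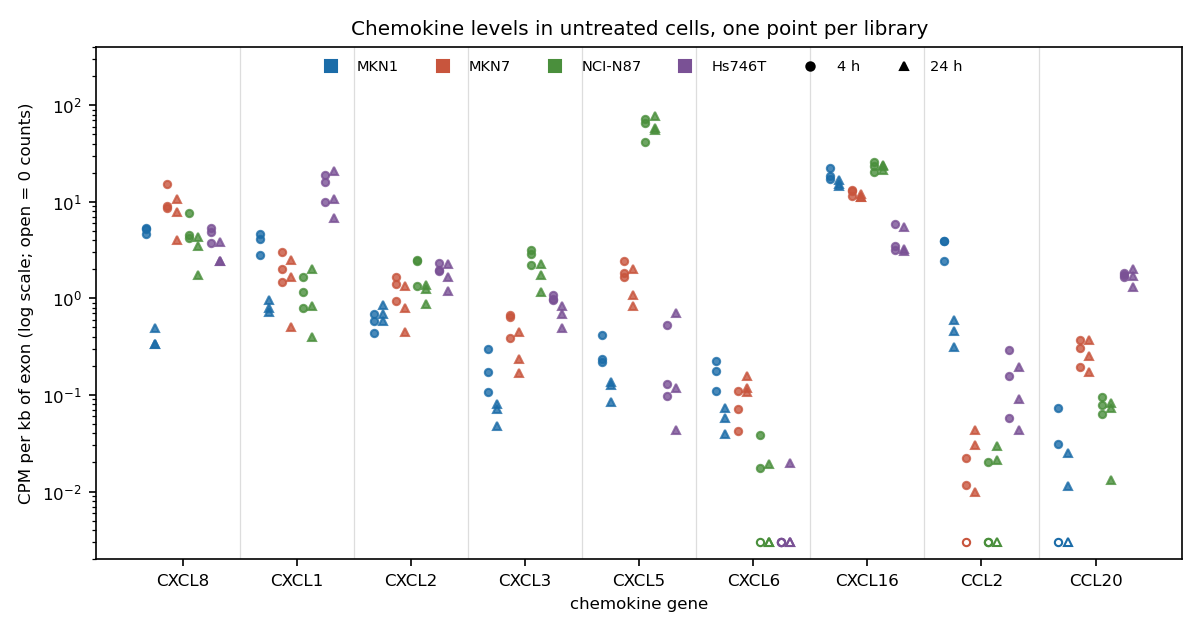
CPM per kilobase of exon (log scale) of the 9 chemokine genes in untreated MKN1, MKN7, NCI-N87 and Hs746T cells, one point per library (circles 4 h, triangles 24 h, open symbols at the bottom for 0 counts). CXCL5 in NCI-N87 lies at 59.6 to 63.4 CPM per kb on average, while in the other 3 lines its mean is at most 1.98 CPM per kb.

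The lines were compared pairwise as the mean of the untreated libraries at both times, by edgeR's quasi-likelihood test with Benjamini-Hochberg adjustment over all genes. A gene was called where the adjusted p was below 0.05 and the log2 fold change (log2FC) beyond 1 in size. For CXCL8, CXCL1 and CCL2, which changed between the times in MKN1, the log2FC against MKN1 averaged unlike differences at 4 h and 24 h. Lines differed in a large share of all genes, so the counts of chemokines stand beside that share: 5 of 9 between MKN7 and MKN1 (41.4% of all genes), 7 of 9 between NCI-N87 and MKN1 (45.9%), 8 of 9 between Hs746T and MKN1 (47.8%), 5 of 9 between NCI-N87 and MKN7 (44.4%), 8 of 9 between Hs746T and MKN7 (45.9%) and 6 of 9 between Hs746T and NCI-N87 (49.1%). CXCL5, an ELR chemokine first described in epithelial cells, was at 106, 167 and 181 CPM in untreated NCI-N87 cells at 4 h and at 139, 146 and 198 CPM at 24 h. Its 4 h levels were 4.67, 4.2 and 6.23 CPM in MKN7, 0.598, 1.05 and 0.554 CPM in MKN1 and 1.34, 0.329 and 0.249 CPM in Hs746T. NCI-N87 did not overlap any other line, and its level was 38.3-fold above MKN7 (log2FC 5.26 ± 0.39 SE, adjusted p = 8.85e-23), the next line in the order. MKN1 and Hs746T did not differ beyond their spread for CXCL5 (0.66 ± 0.54, adjusted p = 0.267).

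CXCL8, a potent neutrophil attractant, was highest in MKN7 with 35.2, 19.5 and 20.6 CPM at 4 h and 17.6, 9.19 and 24.5 CPM at 24 h. In MKN1 it averaged 11.6 CPM at 4 h and 0.886 CPM at 24 h. MKN7 passed the test against NCI-N87 (log2FC of NCI-N87 minus MKN7 -1.13 ± 0.24, adjusted p = 2.25e-05), Hs746T (-1.31 ± 0.25, adjusted p = 1.45e-06) and MKN1 (MKN7 minus MKN1 2.69 ± 0.27, adjusted p = 8.04e-16), and Hs746T and NCI-N87 did not differ beyond their spread (-0.18 ± 0.24, adjusted p = 0.523). The call against NCI-N87 was lost without replicate 3 (-0.81, below the fold limit) and that against Hs746T without replicate 1 (-0.99, likewise). CXCL1, which acts through CXCR2, was highest in Hs746T, with 13.0, 24.4 and 20.8 CPM at 4 h, 7.75-fold above MKN1 over both times (log2FC 2.95 ± 0.39, adjusted p = 4.99e-11). Its means in Hs746T and MKN1 were 19.4 and 4.99 CPM at 4 h and 16.5 and 1.07 CPM at 24 h. The other 3 lines did not differ from each other in CXCL1 beyond their spread, with adjusted p = 0.958 for MKN7 against MKN1, 0.144 for NCI-N87 against MKN1 and 0.122 for NCI-N87 against MKN7, but without replicate 1 NCI-N87 was called lower than both (-1.27, adjusted p = 0.00838, and -1.07, adjusted p = 0.0252). CXCL3 was ordered NCI-N87, Hs746T, MKN7, MKN1, with means of 6.12, 2.25, 1.27 and 0.428 CPM at 4 h, and each neighbouring pair was called, Hs746T against MKN7 not without replicate 2 (0.93, below the fold limit). CXCL2 spanned means of 0.856 to 3.14 CPM at 4 h, with NCI-N87 (1.31 ± 0.26) and Hs746T (1.57 ± 0.26) called above MKN1, and neither the Hs746T and NCI-N87 pair (0.27 ± 0.24, adjusted p = 0.318) nor MKN7 with any line was called.

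CXCL16, the membrane-bound ligand, was transcribed in every line. It ranged from 56.5 to 71.3 CPM over the 6 untreated NCI-N87 libraries, 40.3 to 62.0 CPM in MKN1, 31.1 to 37.2 CPM in MKN7 and 8.74 to 16.3 CPM in Hs746T. Hs746T was below each of the other lines, by log2FC -2.50 ± 0.17 against NCI-N87 (adjusted p = 1.28e-25), -2.09 ± 0.17 against MKN1 and -1.57 ± 0.17 against MKN7. CCL2, the monocyte attractant, was highest in MKN1 (7.85, 7.88 and 4.88 CPM at 4 h). It was lower in Hs746T (0.579, 0.312 and 0.115 CPM, log2FC over both times -3.15 ± 0.38, adjusted p = 2.63e-12). At 24 h its means were 0.904 CPM in MKN1 and 0.219 CPM in Hs746T. Over all 24 libraries of each line CCL2 summed to 44 counts in MKN7 and 27 counts in NCI-N87. CCL20, the ligand of CCR6, was highest in Hs746T with 2.67, 2.91 and 2.76 CPM at 4 h, 6.16-fold above MKN7 (log2FC 2.62 ± 0.26, adjusted p = 3.90e-16), which had 0.594, 0.310 and 0.490 CPM, and it summed to 92 counts over 24 libraries in NCI-N87 and 73 counts over 42 libraries in MKN1. CXCL6 was the lowest of the 9 genes, with 797 counts over all 132 libraries and 0 counts in 51 of them. Untreated MKN1 cells at 4 h had 0.386, 0.490 and 0.238 CPM of CXCL6 against 0 counts in all 3 untreated Hs746T libraries, which is at least 20.6-fold higher with 3 counts over the Hs746T group as the floor.

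Of the 9 genes, 8 passed the filter on low counts in MKN1 (not CCL20), 8 in MKN7 (not CCL2), 6 in NCI-N87 (not CXCL6, CCL2 or CCL20) and 8 in Hs746T (not CXCL6). Passing the filter depends on the highest group, so counts below are of genes tested. Whether groups overlap is given as a description of the libraries. Its share over all genes was not computed, so a lack of overlap adds no support to a call.

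CXCL8, CCL2, CXCL1, CXCL6, CXCL3 and CXCL5 fell in MKN1 cells between 4 h and 24 h without any drug. By the paper's methods, cells were given new medium shortly before treatment. In untreated cells, time in culture and time since that medium change cannot be told apart. Between the untreated groups, 6 of 8 genes were lower at 24 h, where 1.80% of all 19815 genes were. CXCL8 went from 12.3, 11.8 and 10.6 CPM at 4 h to 0.776, 0.764 and 1.12 CPM at 24 h, and the times did not overlap. This was a 13.3-fold fall (log2FC -3.73 ± 0.31, adjusted p = 7.00e-11). CCL2 went from 7.85, 7.88 and 4.88 CPM to 0.902, 1.19 and 0.623 CPM (log2FC -2.94 ± 0.34, adjusted p = 5.22e-08), and CXCL1 from 5.33, 5.97 and 3.67 CPM to 0.938, 1.03 and 1.25 CPM (log2FC -2.25 ± 0.38, adjusted p = 1.65e-05). Each of these genes was lower in 3 of 3 replicates, as were the lower-expressed CXCL6 (log2FC -1.58 ± 0.57), CXCL3 (-1.51 ± 0.49) and CXCL5 (-1.34 ± 0.44), whose calls were lost without replicate 1 (adjusted p = 0.224, 0.132 and 0.138), for CXCL3 and CXCL5 also without replicate 2 (0.15 and 0.141) and for CXCL6 also without replicate 3 (0.108). CXCL6 also lost its call when counts were scaled by library size (log2FC -1.41, adjusted p = 0.0557). CXCL16 differed by less than the fold limit (log2FC -0.35 ± 0.12, adjusted p = 0.0182), and CXCL2 was at 0.656, 0.881 and 1.03 CPM at 4 h and 0.884, 1.03 and 1.29 CPM at 24 h. Of the other chemokine ligands, XCL1 rose over the same interval (1.03 ± 0.15, adjusted p = 1.44e-06), as it did in MKN7 (1.08 ± 0.16, adjusted p = 2.26e-04).

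In the other lines none of the 9 genes passed the test between the untreated times with edgeR or DESeq2. The background was 1.76% of genes for MKN7, 0.0472% for NCI-N87 and 0.129% for Hs746T, and the number of these genes with an unadjusted p below 0.05 was 2 of 8, 3 of 6 and 1 of 8. Replicate numbers paired the samples in these lines, and with the replicate number as a block CXCL3 was called in MKN7 (log2FC -1.05 ± 0.24, adjusted p = 0.00181).

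CXCL8, CXCL1, CXCL3 and CCL2 rose with EGF in MKN1 cells at 4 h, and CXCL5, CXCL8 and CXCL1 at 24 h. At 4 h, 4 of 8 genes rose against untreated cells, where 1.23% of all genes did. CXCL8 was at 50.6, 52.5 and 31.9 CPM with EGF and at 12.3, 11.8 and 10.6 CPM without. All 3 EGF libraries were above all untreated ones, a 3.91-fold rise (log2FC 1.97 ± 0.26, adjusted p = 1.29e-06). CCL2 reached 33.1, 29.1 and 16.6 CPM from 7.85, 7.88 and 4.88 CPM (log2FC 1.94 ± 0.29, adjusted p = 1.89e-05). CXCL1 reached 17.3, 19.2 and 8.89 CPM from 5.33, 5.97 and 3.67 CPM (log2FC 1.61 ± 0.33, adjusted p = 0.00131), and CXCL3 1.55, 1.36 and 1.11 CPM from 0.386, 0.661 and 0.238 CPM (log2FC 1.66 ± 0.39, adjusted p = 0.0053). For these 4 genes replicate 3 was the lowest EGF library, and none overlapped the untreated group. Without replicate 1, CXCL1 (log2FC 1.55, adjusted p = 0.109) and CXCL3 (1.46, adjusted p = 0.336) were no longer called.

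CXCL5 was at 1.97, 1.99 and 0.928 CPM with 4 h EGF against 0.598, 1.05 and 0.554 CPM (log2FC 1.18 ± 0.38, adjusted p = 0.0527). Replicate 3 fell within the untreated range, and with the replicate block, whose numbers paired the MKN1 libraries at 4 h, CXCL5 was called (1.18 ± 0.30, adjusted p = 0.00533). CXCL2 (log2FC 0.87 ± 0.38, adjusted p = 0.208) and CXCL6 (0.81 ± 0.47, adjusted p = 0.405) were higher in 3 of 3 replicates without passing, and CXCL16 stood at 51.7, 53.1 and 63.9 CPM against 48.4, 52.0 and 62.0 CPM (0.06 ± 0.12).

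After 24 h of EGF, 3 of 8 genes were higher than in untreated cells of the same time, where 2.11% of all genes were. CXCL5 reached 1.54, 1.40 and 0.500 CPM from 0.216, 0.342 and 0.322 CPM (log2FC 1.98 ± 0.42, adjusted p = 4.2e-04). CXCL8 reached 2.76, 2.98 and 2.63 CPM from 0.776, 0.764 and 1.12 CPM (log2FC 1.68 ± 0.32, adjusted p = 9.22e-05), and CXCL1 2.99, 2.48 and 1.61 CPM from 0.938, 1.03 and 1.25 CPM (log2FC 1.16 ± 0.38, adjusted p = 0.0172). CXCL2 was lower in 3 of 3 replicates without passing (-0.56 ± 0.39, adjusted p = 0.274). None of the 3 called genes overlapped, and the EGF-treated level of CXCL8 at 24 h stayed below the untreated level at 4 h in every library. CXCL5 lost its call without replicate 1 (1.51, adjusted p = 0.0718), and CXCL1 without replicate 1 (0.87, adjusted p = 0.282), without replicate 2 (1.09, adjusted p = 0.0704) and with library-size scaling (0.96, below the fold limit). The difference of the EGF effect between 24 h and 4 h was called for 0 of 8 genes with edgeR and DESeq2, with 2 at an unadjusted p below 0.05 (2.70% of all genes were called). Of these, CCL2 (-1.26 ± 0.47, adjusted p = 0.0897) was called without replicate 3 (-1.34, adjusted p = 0.0261). With the replicate block CCL2 (-1.23 ± 0.23, adjusted p = 1.25e-04) and CXCL2 (-1.45 ± 0.33, adjusted p = 0.00127) were called, though the pairing was not shown for MKN1 at 24 h.

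With cetuximab, CXCL8 and CXCL1 fell in MKN1 at 4 h. The EGF, cetuximab, trastuzumab and afatinib comparisons share the same 3 untreated libraries of each time. With 4 h cetuximab 2 of 8 genes fell, where 0.257% of all genes did. CXCL8 was at 3.23, 4.63 and 2.33 CPM against 12.3, 11.8 and 10.6 CPM untreated, with no overlap and a 3.43-fold fall (log2FC -1.78 ± 0.27, adjusted p = 9.12e-05). CXCL1 was at 1.28, 2.38 and 1.11 CPM against 5.33, 5.97 and 3.67 CPM (log2FC -1.66 ± 0.36, adjusted p = 0.00847). Both calls were lost without replicate 1 (CXCL8 -1.70, adjusted p = 0.0828, CXCL1 -1.48, adjusted p = 0.363), and that of CXCL1 with only these 2 groups in the fit (-1.65, adjusted p = 0.0616). CCL2, at 3.63, 4.21 and 2.21 CPM, did not overlap the untreated group either (log2FC -1.05 ± 0.30, adjusted p = 0.0806) and was called with the replicate block (-1.06 ± 0.13, adjusted p = 8.27e-07), by DESeq2 (-1.05, adjusted p = 0.0311) and without replicate 3 (-1.02, adjusted p = 0.0417).

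Against EGF alone, 4 h EGF plus cetuximab gave 27.0, 29.9 and 20.6 CPM of CXCL8, below the 50.6, 52.5 and 31.9 CPM with EGF in every library (log2FC -0.80 ± 0.24, adjusted p = 0.197). CCL2 was at 13.1, 15.5 and 9.57 CPM against 33.1, 29.1 and 16.6 CPM (log2FC -1.04 ± 0.28, adjusted p = 0.0938). CXCL1 was at 11.7, 15.3 and 8.48 CPM and overlapped the EGF group (-0.35 ± 0.32). No gene of the 8 was called by edgeR (0.126% of all genes were), 4 had an unadjusted p below 0.05, and DESeq2 called CCL2. With the replicate block CCL2 (-1.03 ± 0.11, adjusted p = 6.57e-08) and CXCL5 (-1.05 ± 0.29, adjusted p = 0.0343) were called, and without replicate 3 CCL2 was (-1.12, adjusted p = 0.0189).

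At 24 h neither cetuximab comparison called a chemokine in MKN1 with edgeR or DESeq2. Cetuximab against untreated cells had 1 of 8 genes at an unadjusted p below 0.05 (background of called genes 1.33%). That gene was CXCL8, at 0.484, 0.489 and 0.423 CPM against 0.776, 0.764 and 1.12 CPM (log2FC -0.93 ± 0.38, adjusted p = 0.114). EGF plus cetuximab against EGF had 2 of 8 (background 0.156%), CXCL8 at 1.31, 1.53 and 1.55 CPM (-0.95 ± 0.30, adjusted p = 0.168) and CXCL5 at 0.430, 0.549 and 0.402 CPM (-1.31 ± 0.40, adjusted p = 0.136). The replicate block called CXCL5 in this comparison (-1.29 ± 0.33, adjusted p = 0.012), though the pairing was not shown for MKN1 at 24 h.

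CXCL8, CXCL1 and CCL2 fell with afatinib in MKN1 at 4 h, with or without trastuzumab. In the comparison with untreated cells 3 of 8 genes fell (0.439% of all genes), and in the comparison of trastuzumab plus afatinib with trastuzumab, which shares no library with it, 3 of 8 fell (0.495% of all genes). CXCL8 was at 2.67, 4.23 and 2.01 CPM with afatinib against 12.3, 11.8 and 10.6 CPM (log2FC -1.98 ± 0.27, adjusted p = 8.45e-06). With trastuzumab plus afatinib it was at 2.42, 3.62 and 1.77 CPM against 11.3, 13.7 and 7.98 CPM with trastuzumab (-2.09 ± 0.27, adjusted p = 3.43e-06). CXCL1 was at 1.19, 1.96 and 0.931 CPM with afatinib (-1.89 ± 0.36, adjusted p = 0.00119) and at 0.952, 2.0 and 0.854 CPM with both drugs (-2.20 ± 0.37, adjusted p = 1.85e-04). CCL2 was at 2.97, 3.81 and 1.99 CPM with afatinib (-1.25 ± 0.30, adjusted p = 0.0135) and 2.42, 3.82 and 1.54 CPM with both (-1.59 ± 0.31, adjusted p = 0.00132). None of the 6 pairs of groups overlapped, which describes genes already called. Without replicate 1, CXCL8 alone was still called in each comparison, with adjusted p = 0.119 and 0.0740 for CXCL1 and 0.356 and 0.170 for CCL2. With only the compared groups in the fit, CCL2 was not called in either (adjusted p = 0.0707 and 0.0538). The log2FC of CXCL2, CXCL3, CXCL5, CXCL6 and CXCL16 with afatinib at 4 h ranged from -1.34 (CXCL6, adjusted p = 0.213) to -0.01 (CXCL16), and none passed.

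After 24 h, CXCL8 was the one gene of the 8 called in MKN1 with afatinib. It was at 0.486, 0.303 and 0.224 CPM with afatinib against 0.776, 0.764 and 1.12 CPM untreated (log2FC -1.38 ± 0.41, adjusted p = 0.0115), the 1 gene called of 8 (1.02% of all genes were lower). With trastuzumab plus afatinib it was at 0.398, 0.347 and 0.119 CPM against 0.403, 0.674 and 0.833 CPM (-1.14 ± 0.43, adjusted p = 0.0477), again 1 of 8 (1.02%). The first call was lost without replicate 3 (-0.97, adjusted p = 0.0965) and the second without any 1 of the 3 replicates (adjusted p = 0.0646, 0.0837 and 0.375), with library-size scaling (-1.0, adjusted p = 0.0672), with no filter (adjusted p = 0.058) and with only the compared groups (adjusted p = 0.0668). CXCL1 had 0.648, 0.606 and 0.325 CPM with afatinib, below the untreated 0.938, 1.03 and 1.25 CPM in every library (-1.02 ± 0.44, adjusted p = 0.0878), and it was called by DESeq2 (-1.03, adjusted p = 0.038) and with only the compared groups (-1.02, adjusted p = 0.0466). CXCL6 was at 0.199, 0.121 and 0.238 CPM with both drugs against 0.0367, 0.0991 and 0.0581 CPM with trastuzumab, 11, 7 and 12 counts against 2, 5 and 3 (1.47 ± 0.69, adjusted p = 0.109), and was called higher without replicate 2 (2.14, adjusted p = 0.0112). CCL2 no longer pointed down, with 1.33, 1.69 and 1.04 CPM against 0.902, 1.19 and 0.623 CPM (0.56 ± 0.37, adjusted p = 0.285). For CCL2 the difference between the afatinib effects at 24 h and 4 h passed the test (1.81 ± 0.48, adjusted p = 0.0317), the 1 of 8 genes that did (0.575% of all genes), and it was lost without replicate 1 (1.72, adjusted p = 0.389), without replicate 3 (1.74, adjusted p = 0.0705) and with only the compared groups (1.82, adjusted p = 0.0945).

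**Figure D2:**
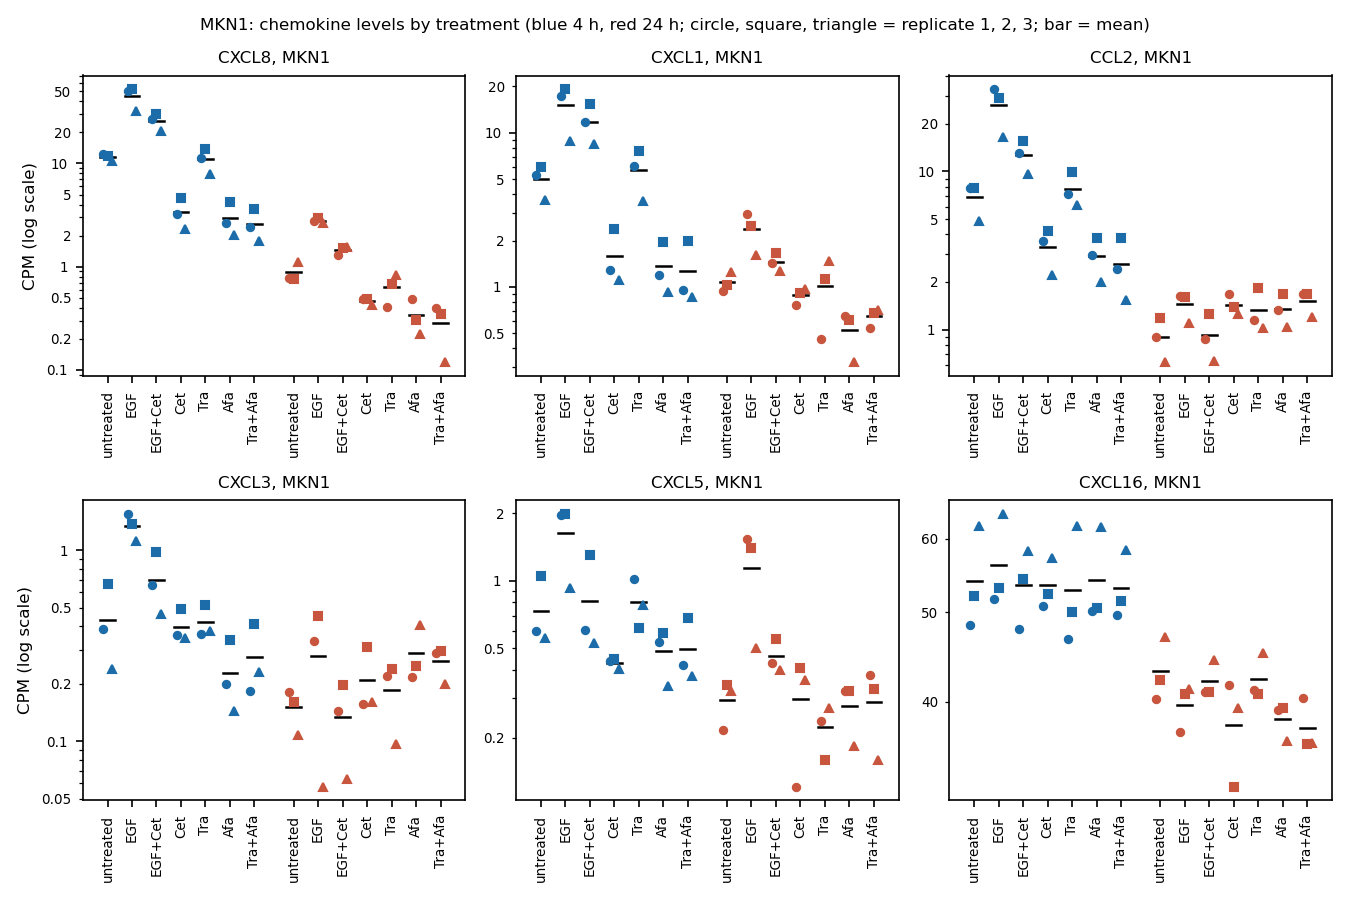
CPM (log scale, a separate range in each panel) of 6 chemokine genes in MKN1 cells under 7 treatments at 4 h (blue) and 24 h (red), with one symbol per replicate and a bar at the mean. CXCL8 averaged 11.6 CPM untreated, 45.0 CPM with EGF and 2.97 CPM with afatinib at 4 h, and 0.886 CPM untreated at 24 h, while CXCL16 stayed between 37.5 and 56.2 CPM on average.

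In NCI-N87 cells CXCL8, CXCL3, CXCL2 and CXCL1 fell with afatinib at 4 h, and these and CXCL5 at 24 h. At 4 h of afatinib 4 of 6 genes were lower (1.22% of all 19078 genes were), and 4 of 6 with trastuzumab plus afatinib against trastuzumab (1.64%). CXCL8 dropped to 0.941, 0.531 and 0.852 CPM from 10.2, 17.3 and 9.60 CPM, a 16.0-fold fall (log2FC -4.00 ± 0.40, adjusted p = 2.79e-07). In the second comparison it was at 0.767, 0.593 and 0.783 CPM against 14.8, 20.2 and 17.6 CPM with trastuzumab (-4.63 ± 0.41, adjusted p = 4.56e-08). Every afatinib-treated library was below 1 CPM and every other one above 9 CPM. CXCL3 fell to 1.41, 1.42 and 2.18 CPM from 4.89, 7.01 and 6.45 CPM (-1.87 ± 0.25, adjusted p = 1.17e-05), and CXCL2 to 0.540, 0.933 and 1.05 CPM from 2.01, 3.77 and 3.63 CPM (-1.89 ± 0.29, adjusted p = 6.45e-05). CXCL1 fell to 0.627, 0.209 and 0.497 CPM from 2.15, 1.03 and 1.5 CPM (-1.81 ± 0.58, adjusted p = 0.0315). These 3 genes did not overlap between the groups either. In the second comparison CXCL3 (-1.87 ± 0.25), CXCL2 (-1.73 ± 0.29) and CXCL1 (-1.94 ± 0.61) fell too, again without overlap. The calls of CXCL1 were lost without replicate 2 (adjusted p = 0.181 and 0.111) and without replicate 3 (adjusted p = 0.117 and 0.0964).

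CXCL5, the most abundant of the 9 genes in this line, was called only at 24 h. At 4 h it was at 70.8, 94.9 and 117 CPM with afatinib against 106, 167 and 181 CPM, with overlap (log2FC -0.68 ± 0.25, adjusted p = 0.0647). After 24 h it was at 16.5, 14.9 and 22.9 CPM against 139, 146 and 198 CPM, a 9.09-fold fall without overlap (-3.18 ± 0.27, adjusted p = 1.65e-09). With both drugs against trastuzumab it was at 14.3, 14.7 and 24.9 CPM against 129, 147 and 202 CPM (-3.17 ± 0.27, adjusted p = 2.08e-09). The difference between the afatinib effects at 24 h and 4 h was -2.51 ± 0.36 (adjusted p = 1.41e-05) and was called for CXCL5 alone among the 6 genes (15.0% of all genes were called).

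CXCL8, CXCL3, CXCL2 and CXCL1, called at 4 h, were called at 24 h too. In each 24 h comparison 5 of 6 genes were lower, CXCL16 being the exception, in a background of 11.5% of all genes with afatinib and 10.8% with trastuzumab plus afatinib. CXCL8 was at 0.454, 0.249 and 0.132 CPM with afatinib against 9.83, 7.83 and 3.95 CPM (log2FC -4.70 ± 0.45, adjusted p = 8.63e-09), and at 0.360, 0.189 and 0.117 CPM against 6.82, 4.99 and 2.61 CPM in the second comparison (-4.41 ± 0.47, adjusted p = 5.02e-08). CXCL3 (-1.83 ± 0.26) and CXCL2 (-1.58 ± 0.31) fell without overlap, and CXCL1 fell to 0.629, 0.160 and 0.264 CPM from 2.57, 1.07 and 0.508 CPM, where the untreated replicate 3 lay below the treated replicate 1 (-2.00 ± 0.60, adjusted p = 0.00593). All 10 calls of the 2 comparisons were kept without each replicate in turn. CXCL16 was at 51.3, 41.5 and 54.7 CPM with afatinib against 67.7, 59.4 and 65.4 CPM, without overlap but under the fold limit (-0.42 ± 0.14, adjusted p = 0.0127). Scaled by library size, the median of all genes moved by 0.26 with afatinib and 0.28 with both drugs at 24 h, and every fall called above kept its direction and call. The CXCL16 difference of -0.42 had no call to keep, and a shift of 0.26 is large beside it.

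In MKN7 cells CCL20 was called at 4 h, and CXCL5, CXCL8, CCL20 and CXCL2 at 24 h. With 4 h afatinib 1 of 8 genes fell (1.59% of all 18483 genes did). That gene was CCL20, with 0.146, 0.0828 and 0.140 CPM against 0.594, 0.310 and 0.490 CPM untreated (log2FC -1.92 ± 0.51, adjusted p = 0.00918), or 7, 4 and 7 counts against 22, 14 and 21. With both drugs against trastuzumab it was again the 1 gene of 8 (1.22%), with 0.113, 0.0976 and 0.186 CPM against 0.310, 0.388 and 0.440 CPM (-1.51 ± 0.51, adjusted p = 0.0378). Neither pair of groups overlapped, but the first call was lost without replicate 2 (-1.94, adjusted p = 0.081) and the second without any 1 of the replicates (adjusted p = 0.0881, 0.254 and 0.0809). CXCL8 at 4 h was at 24.5, 11.4 and 9.57 CPM against 35.2, 19.5 and 20.6 CPM, lower in 3 of 3 replicates but overlapping (-0.76 ± 0.43, adjusted p = 0.224).

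After 24 h of afatinib 4 of 8 genes were lower in MKN7 (3.25% of all genes), and with both drugs against trastuzumab 2 of 8 (2.16%). CXCL5 was at 0.910, 0.722 and 1.13 CPM against 2.73, 2.10 and 5.10 CPM (log2FC -1.85 ± 0.34, adjusted p = 1.03e-04), without overlap, and was still called without each replicate in turn. In the second comparison CXCL5 was at 0.613, 1.01 and 1.55 CPM against 1.83, 1.61 and 2.90 CPM, just short of the fold limit (-1.0 ± 0.34, adjusted p = 0.0206), and was called with the replicate block (-1.01 ± 0.17, adjusted p = 3.29e-05), with DESeq2 (-1.03) and without replicate 3 (-1.11). CXCL8 was at 8.97, 3.83 and 6.57 CPM against 17.6, 9.19 and 24.5 CPM (-1.42 ± 0.44, adjusted p = 0.0106) and at 7.60, 3.84 and 7.34 CPM against 15.8, 8.68 and 22.3 CPM in the second comparison (-1.33 ± 0.45, adjusted p = 0.0187). The CXCL8 groups did not overlap, and both calls were lost without replicate 3 (adjusted p = 0.138 and 0.141).

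CCL20 was at 0.303, 0.101 and 0.0377 CPM with 24 h afatinib against 0.401, 0.275 and 0.586 CPM, with 1 treated library inside the untreated range (log2FC -1.53 ± 0.49, adjusted p = 0.0121). With both drugs it was at 0.0422, 0.0900 and 0.0757 CPM against 0.108, 0.280 and 0.374 CPM (-1.83 ± 0.59, adjusted p = 0.0156), which is 2, 5 and 4 counts against 5, 15 and 17. Both calls were lost without replicate 2 (adjusted p = 0.0718 and 0.0891) and without replicate 3 (-0.80, adjusted p = 0.285, and -1.55, adjusted p = 0.118), and the first with only the compared groups in the fit (adjusted p = 0.054). CXCL2 passed with afatinib alone (0.849, 0.319 and 0.736 CPM against 1.2, 0.668 and 2.02 CPM, -1.04 ± 0.43, adjusted p = 0.0447), with overlap, and not without replicate 1 (adjusted p = 0.0883), without replicate 3 (-0.73, adjusted p = 0.266), with library-size scaling (-0.92, adjusted p = 0.0691) or with only the compared groups (adjusted p = 0.0838).

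CXCL16 was higher with afatinib in MKN7 at 24 h, by less than the fold limit. It was at 49.8, 48.3 and 56.3 CPM with afatinib against 33.9, 31.1 and 31.7 CPM (log2FC 0.67 ± 0.09, adjusted p = 3.76e-06), and at 51.2, 47.3 and 62.0 CPM with both drugs against 38.5, 35.5 and 35.3 CPM with trastuzumab (0.54 ± 0.09, adjusted p = 6.98e-05). The groups did not overlap in either comparison. At 4 h it was at 38.2, 37.6 and 33.9 CPM against 37.2, 36.3 and 32.3 CPM (0.01 ± 0.09). The change in the afatinib effect from 4 h to 24 h was 0.65 ± 0.13 (adjusted p = 0.00131), also below the limit, and for CXCL5 it was -1.16 ± 0.45 (adjusted p = 0.0796). No gene of the 8 was called for this change by edgeR (2 had an unadjusted p below 0.05, 4.67% of all genes were called), DESeq2 called CXCL5 (-1.19, adjusted p = 0.0391), and the replicate block called CXCL5 (-1.12 ± 0.22, adjusted p = 3.04e-04).

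**Figure D3:**
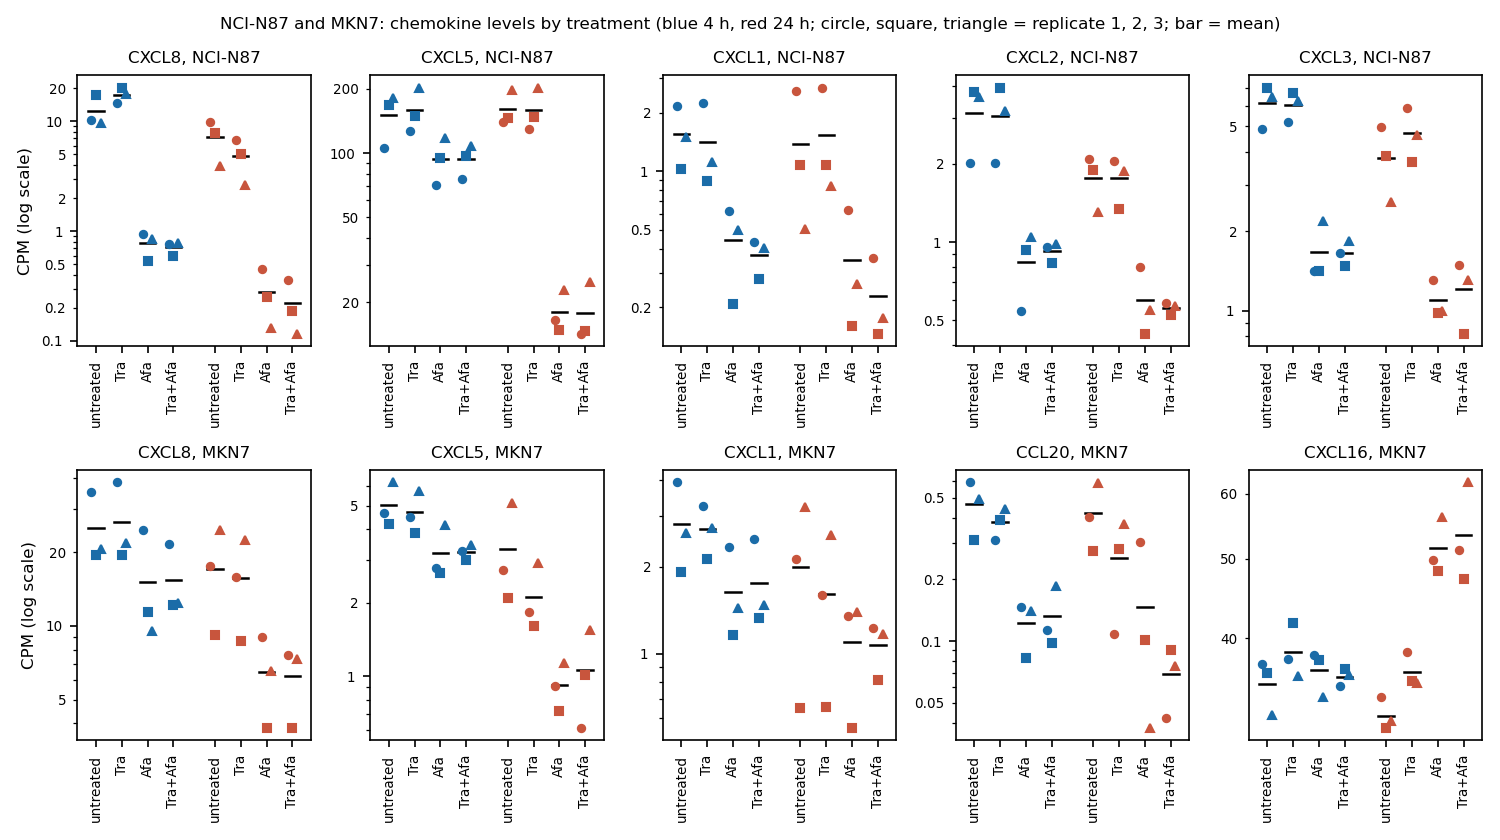
CPM (log scale, a separate range in each panel) of 5 chemokine genes each in NCI-N87 (top) and MKN7 (bottom) at 4 h (blue) and 24 h (red), with one symbol per replicate and a bar at the mean. In NCI-N87, CXCL5 averaged 151 CPM untreated and 94.2 CPM with afatinib at 4 h, and 161 CPM untreated and 18.1 CPM with afatinib at 24 h.

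Hs746T cells, which express CXCL1, CXCL8 and CCL20 without any treatment, had no chemokine called with any drug. In all 12 treatment comparisons of this line edgeR and DESeq2 called 0 chemokines and 0 genes of any kind (0% of 18667), and 0 of the 8 chemokines tested had an unadjusted p below 0.05 in any of them. CXCL8 was at 8.55, 12.2 and 10.9 CPM untreated, 10.8, 15.7 and 13.9 CPM with EGF and 7.27, 10.7 and 10.1 CPM with afatinib at 4 h. CXCL1 was at 9.88, 32.5 and 23.7 CPM with afatinib against 13.0, 24.4 and 20.8 CPM (log2FC 0.23 ± 0.62). At 24 h CXCL8 was at 3.92, 4.36 and 6.70 CPM with afatinib against 5.56, 5.58 and 8.70 CPM (-0.41 ± 0.32) and CXCL1 at 6.55, 7.48 and 13.8 CPM against 8.73, 13.9 and 26.9 CPM (-0.84 ± 0.63), both lower in 3 of 3 replicates with overlapping groups. CCL20 stayed between 2.10 and 3.97 CPM in all 42 libraries. With the replicate block, whose numbers paired the samples in this line, the count of chemokines stayed at 0 in every treatment comparison, and 66 other genes were called with 4 h afatinib.

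CXCL5 and CXCL16 in Hs746T went with the replicate number at both times. Over both times together, the ranges of the other 7 genes overlapped. CXCL5 was at 1.22 to 1.78 CPM in the 14 libraries of replicate 1 and at 0.0937 to 0.503 CPM in the 28 libraries of replicates 2 and 3. CXCL16 was at 14.1 to 17.3 CPM against 7.73 to 11 CPM. Replicate 1 was above the others for both genes under every treatment, whereas for CXCL1 its range was 6.55 to 13.0 CPM with a median of 8.92 against 24.0 CPM in replicates 2 and 3. At 4 h alone, replicate 1 lay below all libraries of replicates 2 and 3 for CXCL1 (8.46 to 13 against 20.8 to 44.6 CPM) and CXCL2 (2.1 to 2.91 against 2.99 to 5.22 CPM). At 24 h alone, replicate 1 lay above them for CCL2 (0.26 to 0.538 against 0.0195 to 0.236 CPM). Without replicate 1 the line still called 0 chemokines in each treatment comparison. No treatment comparison of this line had a chemokine called in any of the alternatives run.

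**Figure D4:**
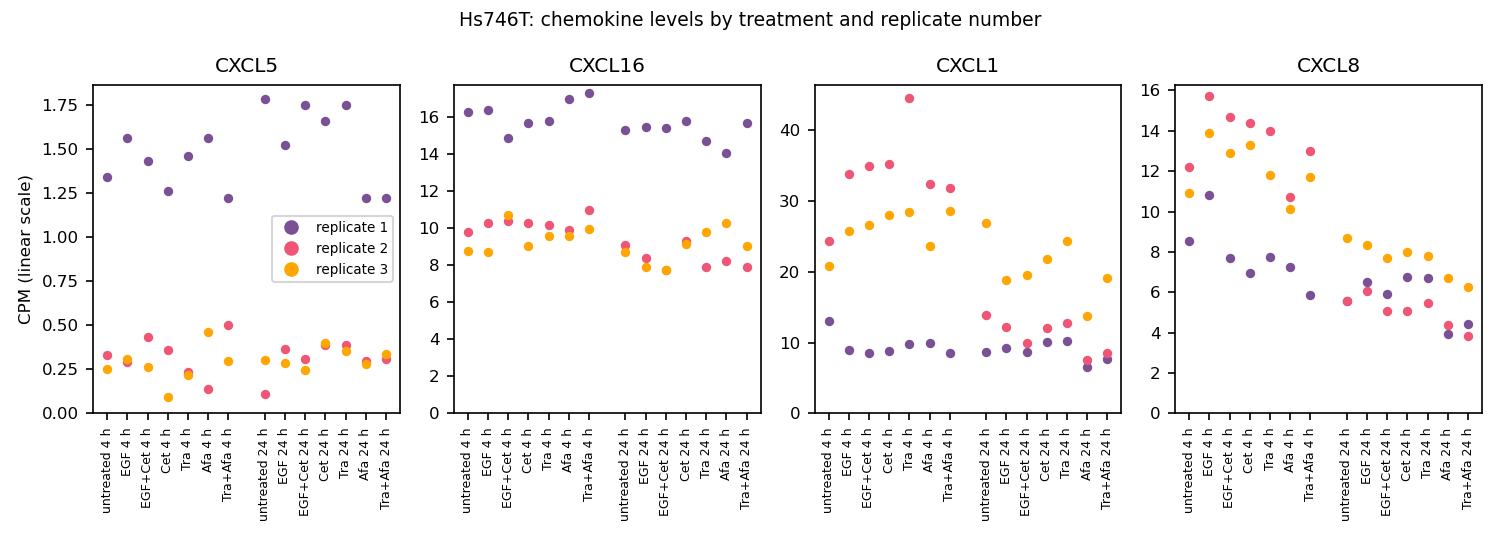
CPM (linear scale from 0) of CXCL5, CXCL16, CXCL1 and CXCL8 in all 42 Hs746T libraries by treatment and time, coloured by replicate number. Replicate 1 lies at 1.22 to 1.78 CPM for CXCL5 and 14.1 to 17.3 CPM for CXCL16, above all libraries of the other replicates.

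With trastuzumab alone no chemokine was called in any line. Against untreated cells, 0 of 8 (MKN1), 0 of 8 (MKN7), 0 of 6 (NCI-N87) and 0 of 8 (Hs746T) were called at either time by edgeR or DESeq2, and none had an unadjusted p below 0.05. No other gene was called either (0% of genes in each line), with 254 and 158 genes at an unadjusted p below 0.05 in MKN1 at 4 h and 24 h, 661 and 590 in MKN7, 434 and 786 in NCI-N87 and 322 and 125 in Hs746T. Differences of at least 0.50 in size were seen for CXCL6 in MKN1 at 24 h (log2FC -0.94 ± 0.74), CCL20 in MKN7 at 24 h (-0.70 ± 0.46), CXCL5 in MKN7 at 24 h (-0.64 ± 0.31), CCL2 in MKN1 at 24 h (0.55 ± 0.37), CXCL1 in Hs746T at 4 h (0.53 ± 0.62) and CXCL8 in NCI-N87 (0.50 ± 0.33 at 4 h and -0.60 ± 0.34 at 24 h). CXCL8 in trastuzumab-treated NCI-N87 cells was at 14.8, 20.2 and 17.6 CPM at 4 h and 6.82, 4.99 and 2.61 CPM at 24 h, overlapping the untreated groups. By replicate number, CXCL8 in NCI-N87 at each time, CXCL5 in MKN7, and CXCL6 and CCL2 in MKN1 kept their direction in every replicate. CCL20 in MKN7 and CXCL1 in Hs746T did not. With the replicate block no chemokine was called with trastuzumab alone either.

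**Figure D5:**
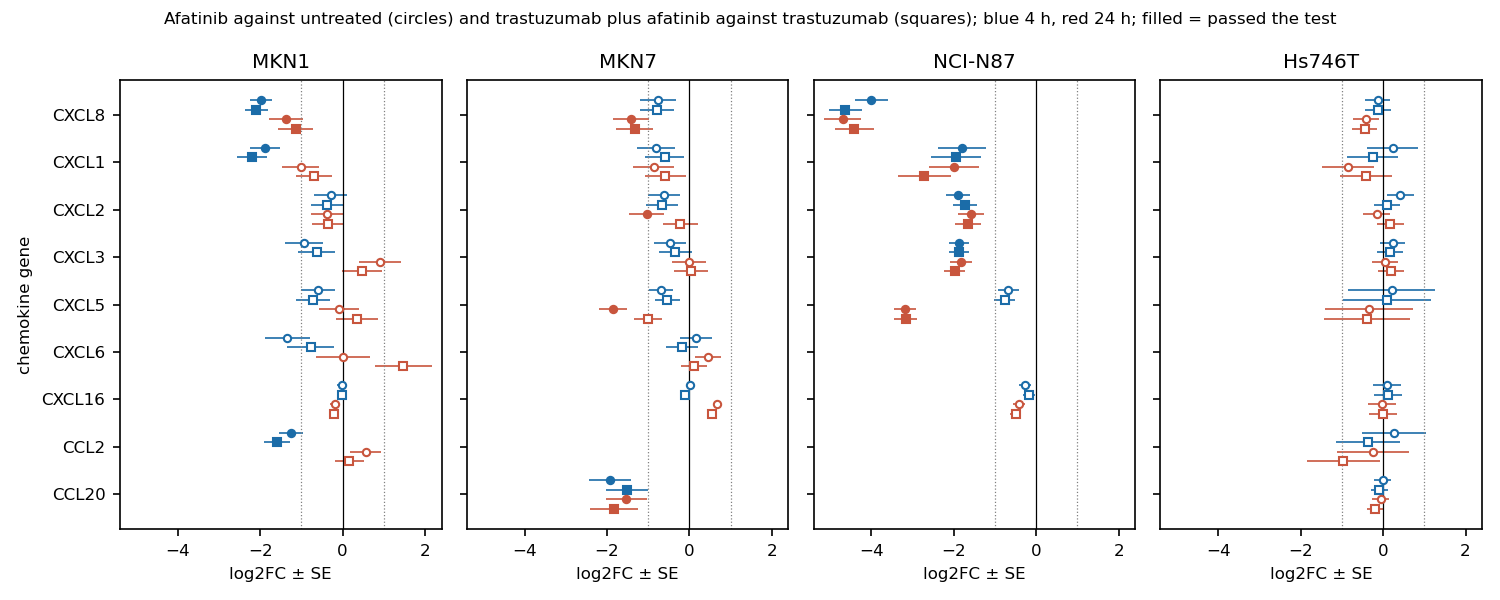
log2FC with its standard error for each chemokine gene that was tested, by cell line: afatinib against untreated (circles) and trastuzumab plus afatinib against trastuzumab (squares), at 4 h (blue) and 24 h (red). Filled symbols passed the test, and dotted lines mark the fold limit. CXCL8 in NCI-N87 lies between -4.70 and -4.00 for the circles, and no symbol is filled in Hs746T.

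The afatinib effects were compared between lines in a fit over all libraries. CXCL8 fell further in NCI-N87 than in MKN1, by log2FC -2.04 ± 0.54 at 4 h (adjusted p = 0.0198, 1 of 9 genes, 0.565% of all genes) and -3.31 ± 0.73 at 24 h (adjusted p = 1.74e-04). At 24 h CXCL3 (-2.71 ± 0.60, adjusted p = 2.03e-04) and CXCL5 (-3.09 ± 1.08, adjusted p = 0.0230) differed too, making 3 of 9 genes where 13.4% of all genes did. The 4 h call was lost without replicate 2 (-1.15, adjusted p = 0.913) and without replicate 3 (-2.40, adjusted p = 0.0680), and the CXCL5 call without replicate 2 (-3.07, adjusted p = 0.169) and without replicate 3 (-3.29, adjusted p = 0.0655). With the replicate block CXCL2 also differed at 4 h (-1.58 ± 0.33, adjusted p = 2.53e-04).

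Between MKN7 and MKN1, 0 of 9 genes differed in their afatinib effect at 4 h (0.473% of all genes, 1 gene at an unadjusted p below 0.05, DESeq2 0) and 0 of 9 at 24 h (3.6%, 1 gene, DESeq2 0). With the replicate block CXCL8 (1.22 ± 0.20, adjusted p = 1.54e-06) and CXCL1 (1.11 ± 0.31, adjusted p = 0.00788) fell less in MKN7 at 4 h. Between Hs746T and MKN1, 0 of 9 differed at 4 h (0.245%, 4 genes at an unadjusted p below 0.05, DESeq2 CXCL8 alone) and 0 of 9 at 24 h (1.34%, 0 genes, DESeq2 0). With the block 4 genes differed at 4 h, each with a higher log2FC in Hs746T than in MKN1: CXCL1 (1.95 ± 0.24, adjusted p = 4.02e-09), CXCL8 (1.82 ± 0.20, adjusted p = 5.42e-11), CCL2 (1.51 ± 0.37, adjusted p = 0.00309) and CXCL3 (1.05 ± 0.38, adjusted p = 0.0489). Of these, only CXCL8 had a lower mean with 4 h afatinib than untreated in Hs746T (9.36 against 10.5 CPM). The means were 22 against 19.4 CPM for CXCL1, 0.39 against 0.335 CPM for CCL2 and 2.57 against 2.25 CPM for CXCL3.

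The EGF effect was compared between MKN1 and Hs746T in the same fit. At 4 h 0 of 9 genes differed (0.486% of all genes, 3 genes at an unadjusted p below 0.05, DESeq2 0). With the block CXCL8 (1.58 ± 0.18, adjusted p = 4.45e-11), CXCL1 (1.5 ± 0.20, adjusted p = 1.77e-08), CCL2 (1.97 ± 0.37, adjusted p = 7.27e-05) and CXCL3 (1.40 ± 0.30, adjusted p = 6.05e-04) had a higher log2FC in MKN1 than in Hs746T. At 24 h 0 of 9 differed (3.15%, 2 genes, DESeq2 CXCL8 alone), with CXCL8 at 1.59 ± 0.54 (adjusted p = 0.0538), and 1.62 (adjusted p = 0.0159) with only the compared groups.

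Genes that report the ERK pathway, which EGF receptors feed, were read beside the chemokines. Of a list of 9 (EGR1, DUSP4, DUSP6, SPRY2, SPRY4, PHLDA1, FOSL1, ETV4, ETV5), all but ETV4 were tested in MKN1. The list was chosen with earlier results of these data known. The paper names DUSP4, DUSP6 and SPRY2 as regulated by 4 h afatinib in MKN1. The shares below are therefore descriptions and no independent support. At 4 h, 5 of 8 rose with EGF (beside 1.23% of all genes), 7 of 8 fell with cetuximab (0.257%) and 8 of 8 with afatinib (0.439%). The medians were 1.22, -1.93 and -2.62 beside all-gene medians of 0.00, 0.01 and 0.01 on the log2 scale. In MKN7 and NCI-N87, 7 or 8 of 8 fell in every afatinib comparison, beside 1.22% to 11.5% of all genes. DUSP6, a phosphatase that ERK induces and that acts on ERK, had a log2FC of 1.84 ± 0.37 with EGF, -2.45 ± 0.40 with cetuximab and -3.36 ± 0.42 with afatinib in MKN1 at 4 h. With 4 h afatinib it was -4.01 ± 0.49 in MKN7 and -4.77 ± 0.36 in NCI-N87, against 0.32 ± 0.15 in Hs746T, where 0 of 9 were called. With EGF plus cetuximab against EGF in MKN1 at 4 h, DUSP6 was not called (-0.42 ± 0.36), and neither was any of the 8.

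Of 12 NF-kB target genes other than the 9 chemokines, 10 or 11 were tested in MKN1, MKN7 and NCI-N87. With EGF in MKN1, 2 of 11 rose at 4 h (TNFAIP3, IL1B, beside 1.23% of all genes). At 24 h IL1B rose and NFKBIZ fell, beside 8.36% of all genes called in either direction. With 4 h afatinib 1 of 11 fell in MKN1 (BIRC3, beside 0.439% of all genes), 0 of 11 in MKN7 and 0 of 10 in NCI-N87. With trastuzumab plus afatinib against trastuzumab at 4 h, 0 of 11 were called in MKN1 and in MKN7, and 1 of 10 fell in NCI-N87 (TNFAIP3, beside 1.64%). At 24 h none of the 11 was called in MKN1 in either comparison. In MKN7 3 of 11 fell with 24 h afatinib (IL1A, IL1B, TNFAIP3, beside 3.25%) and 1 of 11 rose (IL6, beside 10.3%), whereas with both drugs against trastuzumab 2 of 11 fell (IL1A, IL1B, beside 2.16%) and none rose. In NCI-N87 1 of 10 fell (TNFAIP3) and 1 of 10 rose (ICAM1) in each 24 h comparison, which is near the background of 11.5% lower and 18.1% higher with afatinib and 10.8% lower and 17.4% higher with both drugs. NFKBIA, the inhibitor that NF-kB induces against itself, was called in none of the treatment comparisons, with a log2FC of 0.19 ± 0.11 with EGF and -0.06 ± 0.11 with afatinib in MKN1 at 4 h and 0.15 ± 0.19 with afatinib in NCI-N87 at 4 h. TNFAIP3, another such inhibitor, rose with 4 h EGF in MKN1 (1.01 ± 0.12, adjusted p = 1.31e-07) and fell with 24 h afatinib in MKN7 (-1.07 ± 0.20) and NCI-N87 (-1.31 ± 0.23, adjusted p = 3.28e-05). With both drugs against trastuzumab at 24 h it was below the fold limit in MKN7 (-0.93 ± 0.20, adjusted p = 6.92e-04) and fell in NCI-N87 (-1.28 ± 0.23, adjusted p = 5.00e-05). Between untreated MKN1 cells at 24 h and 4 h, where 6 of 8 chemokines were lower, 6 of 11 were lower (BIRC3, ICAM1, RELB, TNFAIP3, IL1B, IL6), beside 1.8% of all genes.

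The CXCL16 sheddases ADAM10 and ADAM17 were called in none of the treatment comparisons. The cognate receptors had few counts. CXCR6 had 0 counts in all 132 libraries, CXCR2 at most 6 counts, CXCR1 at most 15, CCR6 at most 2 and CCR2 at most 26. CCR2, the receptor of CCL2, was called higher at 24 h in MKN1 with cetuximab (12, 14 and 13 counts against 3, 1 and 4 untreated, log2FC 2.06 ± 0.57, adjusted p = 0.0175), with afatinib (14, 16 and 22 counts, 2.58 ± 0.55, adjusted p = 7.31e-04) and with trastuzumab plus afatinib against trastuzumab (25, 25 and 26 counts against 3, 4 and 1, 3.10 ± 0.53, adjusted p = 5.11e-05). None of these groups overlapped. Of all 23 chemokine receptors listed, 8 passed the filter in MKN1, 7 in MKN7 and NCI-N87 and 4 in Hs746T, and at most 5 were called in a treatment comparison. That was 24 h EGF in MKN1, with 2 of 8 higher and 3 of 8 lower beside 8.36% of all genes in either direction. Called in more than 1 treatment comparison were CXCR4, CCR2, CCR3, CCR7, CCR10, ACKR3 and CCRL2, named after their values were seen. Of 37 other chemokine ligands, 8 passed the filter in MKN1, 6 in NCI-N87 and 5 in MKN7 and Hs746T. With 24 h afatinib in NCI-N87, where 5 of the 9 chemokines fell, CCL17, a ligand of CCR4 (log2FC 3.06 ± 0.51, adjusted p = 1.88e-05), the B-cell attractant CXCL13 (2.46 ± 0.30, adjusted p = 3.15e-07) and the mucosal chemokine CCL28 (1.51 ± 0.52, adjusted p = 0.0157) rose, and CCL24 fell (-1.96 ± 0.33, adjusted p = 2.09e-05). CXCL13 also rose with 24 h afatinib in MKN7 (1.31 ± 0.42, adjusted p = 0.0118), and 0 of 5 ligands were called in any treatment comparison of Hs746T. In MKN1 the lymphocyte attractant XCL1 was lower after 24 h EGF (-1.08 ± 0.15, adjusted p = 6.03e-07), and no other ligand of the list was called in a treatment comparison of that line.

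Across the means of the 44 conditions, taken on log2 CPM after subtracting each line's own mean, CXCL1 and CXCL8 were the most alike of the 9 genes (Pearson's r = 0.95, 0.96 in MKN1, 0.93 in Hs746T, 0.95 in MKN7 and 0.97 in NCI-N87), as a description, since conditions of a line share cells and depth. Within single lines this pair led only in MKN1. CXCL2 and CXCL3 were closer in NCI-N87 (0.99) and Hs746T (0.94), and CXCL1 and CXCL2 in MKN7 (0.97). Among the 15748 genes compared, those most like CXCL8 were PMEPA1 (r = 0.97), PANX1 (0.97), CSF2 (0.96), ZYX (0.96) and HRH1 (0.95). For CCL2 they were BIRC3, CSF1, SAMD4A (0.85 each), SDC4 (0.84) and PBX4 (0.83), for CXCL16 PRSS23 (0.92), GPC1 (0.91), PAWR, RDH10 (0.85 each) and LUZP1 (0.84), and for CCL20 PLK3 (0.88) and EHD4, ASB1, CDC42EP1 and TNFRSF10A (0.87 each). CXCL5 and CXCL8 correlated at 0.89 in MKN1, 0.97 in MKN7 and 0.87 in NCI-N87 but at -0.18 in Hs746T, and CXCL16 and CXCL8 at 0.84 in MKN1, 0.94 in NCI-N87 and -0.84 in MKN7.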

How the data were processed

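Poly(A) RNA from 4 gastric cancer cell lines was sequenced as directional, paired-end libraries, and the authors deposited raw gene counts for each library. The submitters' processing notes name Trim Galore, STAR and hg38. The counting tool, its strand setting and the annotation release are not given in the sources used here. Identifiers were matched to GENCODE 29 (8404 of 65217 were absent, holding 0.0422% of counts), and no counts were present on the 37 mitochondrial identifiers. Library totals ran from 25832557 to 69434151, and no pair of libraries was identical.

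Counts were tested with edgeR 4.0.16 (limma 3.58.1, R 4.3.3) by the quasi-likelihood test on TMM-normalised counts, with filterByExpr (minimum count 10, minimum total 15), prior count 2 and 1 mean per condition. Each treatment or time contrast was fitted over all libraries of its line, and contrasts between lines over all 132 libraries. A gene was called at a Benjamini-Hochberg adjusted p below 0.05 over all genes tested and a log2FC above 1 or below -1. CPM were TMM-scaled over all libraries, and errors are standard errors. Tests were two-sided. The fits were tested on simulated counts with known changes.

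Alternatives were DESeq2 1.42.0, library-size scaling, no filter, only the compared groups in the fit, a block for the replicate number, and fits with 1 replicate left out at a time. Same-numbered libraries of a line and time deviated together (r above 0.1 in every pair, mean r 0.31 to 0.52) except in MKN1 at 24 h (56 of 63 pairs, mean r 0.24), and the untreated libraries of 4 h and 24 h did so in all lines. The pairing rests on these correlations and the shared numbers. Between lines it did not hold (11 of 36 pairs), so the block was set within a line and time for treatment effects.

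The 9 genes, the gene lists (other chemokine ligands, chemokine receptors, ERK pathway output, NF-kB target genes, CXCL16 sheddases, cell type markers) and the tests were chosen with earlier results of these data known. All 9 genes were named whether or not they passed, other ligands where called, the receptors of the 9 genes, DUSP6, NFKBIA, TNFAIP3 and the 5 genes most alike to CXCL8, CCL20, CXCL16 and CCL2. Sequences were read from RefSeq (GRCh38.p14), and entries for CXCL16 and CCL2 were not used here. Python 3.11.15 with pandas 2.3.3, numpy 2.4.6 and matplotlib 3.10.9 made the summaries and figures.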

Additional observations from a re-analysis of the deposited data

Results flagged for a closer look

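The afatinib effect differed between NCI-N87 and MKN1 by the test of the difference itself. At 4 h this held for CXCL8 (log2FC difference -2.04 ± 0.54, edgeR adjusted p = 0.0198), a call lost without replicate 2 (-1.15, adjusted p = 0.913) and without replicate 3 (-2.40, adjusted p = 0.0680). At 24 h it held for CXCL3 (-2.71 ± 0.60, adjusted p = 2.03e-04), CXCL5 (-3.09 ± 1.08, adjusted p = 0.0230) and CXCL8 (-3.31 ± 0.73, adjusted p = 1.74e-04). The CXCL5 call was lost without replicate 2 (adjusted p = 0.169) and without replicate 3 (adjusted p = 0.0655). Each value is negative because the log2FC with afatinib was lower in NCI-N87 than in MKN1. CXCL8 fell in both lines. In MKN1 at 24 h, CXCL3 averaged 0.29 CPM with afatinib against 0.15 CPM untreated, both at few counts. CXCL5 there averaged 0.276 against 0.293 CPM.

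The afatinib effect also differed between 24 h and 4 h within a line. In MKN1 it did so for CCL2 (1.81 ± 0.48, edgeR adjusted p = 0.0317), which fell at 4 h and was not called at 24 h. This call was lost without replicate 1 (adjusted p = 0.389), without replicate 3 (adjusted p = 0.0705) and with only the compared groups (adjusted p = 0.0945). In NCI-N87 it did so for CXCL5 (-2.51 ± 0.36, adjusted p = 1.41e-05), which was called at 24 h alone. Groups of 3 libraries are too small for the test of single outlying samples, which was not run.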

How the results depend on the processing

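No called value changed sign under any alternative. Counts of called chemokine genes moved by over 1.5 times as follows, and the cause was not tested. The share of all genes called under the same alternative does not stand beside these counts. They describe sensitivity to the processing only. With only the compared groups in the fit, the count was 1 for MKN1 cetuximab at 4 h, 2 for MKN1 afatinib at 24 h, 0 for MKN1 trastuzumab plus afatinib at 24 h, 2 for MKN7 afatinib at 24 h, 1 for the afatinib effect of Hs746T minus MKN1 at 4 h, 1 for the EGF effect of MKN1 minus Hs746T at 4 h and 1 at 24 h, and 0 for the afatinib effect of 24 h minus 4 h in MKN1. With DESeq2 it was 1 for MKN1 EGF plus cetuximab at 4 h, 2 for MKN1 afatinib at 24 h, 1 for the afatinib effect of Hs746T minus MKN1 at 4 h, 1 for the EGF effect at 24 h and 1 for the afatinib effect of 24 h minus 4 h in MKN7. Library-size scaling and no filter each gave 0 for MKN1 trastuzumab plus afatinib at 24 h, and no filter gave 1 for the afatinib effect of 24 h minus 4 h in MKN7.

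With the replicate block the count was 2 for MKN1 EGF plus cetuximab against EGF at 4 h and 1 at 24 h, 2 for MKN1 afatinib at 24 h, 1 for MKN7 between the untreated times, 2 and 1 for the afatinib effect of MKN7 minus MKN1 at 4 h and 24 h, 2 for NCI-N87 minus MKN1 at 4 h, 4 for Hs746T minus MKN1 at 4 h, 4 and 3 for the EGF effect of MKN1 minus Hs746T at 4 h and 24 h, 2 for the EGF effect of 24 h minus 4 h in MKN1, and 2 in MKN1 and 1 in MKN7 for the afatinib effect of 24 h minus 4 h. At 24 h the block called CXCL8 (1.57), CXCL1 (1.36) and CXCL5 (2.02) for the EGF effect of MKN1 minus Hs746T, and CXCL1 (-1.01) for MKN1 afatinib. The block gained 28 gene calls among these chemokines and lost 0. It also called other genes, as with 4 h afatinib in Hs746T, where no gene was called without it. The gain was therefore not particular to chemokines. The pairing was not shown for MKN1 at 24 h or between lines.

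Leaving out each replicate gave 2 to 4 called genes for MKN1 EGF at 4 h and 1 to 3 at 24 h, 0 to 3 for cetuximab and 0 to 1 for EGF plus cetuximab at 4 h, 1 to 3 for both afatinib comparisons at 4 h and 0 to 1 at 24 h, and 3 to 5 between the untreated times in MKN1. In MKN7 it gave 0 to 1 for afatinib at 4 h, 0 to 0 with trastuzumab at 4 h, 1 to 3 for afatinib at 24 h and 1 to 2 with trastuzumab. In NCI-N87 it gave 3 to 4 at 4 h and 5 at 24 h in both comparisons. The afatinib effect of NCI-N87 minus MKN1 had 0 to 1 at 4 h and 2 to 3 at 24 h, and the EGF and afatinib effects of 24 h minus 4 h in MKN1 had 0 to 1.

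Library-size scaling moved the median of all genes by 0.26 and 0.28 in the 24 h afatinib comparisons of NCI-N87, where the share of calls that were higher went from 61.2% to 77.0% and from 61.8% to 79.1%. In MKN1 that share went from 83.3% to 67.1% with 4 h EGF, 25.3% to 11.8% with 24 h EGF, 35.6% to 52.9% with 4 h afatinib, 75.7% to 88.3% with both drugs at 24 h and 77.7% to 89.1% between the untreated times, and in MKN7 from 53.3% to 65.7% and 58.9% to 70.6% in the 4 h comparisons. In the comparisons of effects it went from 48.1% to 38.0% (MKN7 minus MKN1, 4 h), 56.0% to 69.5% (NCI-N87 minus MKN1, 24 h), 71.4% to 54.4% (Hs746T minus MKN1, 4 h), 31.6% to 16.3% (EGF, 24 h) and 55.9% to 71.8% (24 h minus 4 h, NCI-N87). Depth limits CCL2 in MKN7 and NCI-N87, CCL20 in MKN1, MKN7 and NCI-N87, and CXCL6 in every line, where single libraries held few or no counts.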
